A study of Homo sapiens with 7 samples.

Results

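TE5 cells in which CCAT1 had been silenced were compared with TE5 cells in which TP63 or SOX2 had been silenced, with 1 RNA-seq library for each. TE5 and KYSE140 are human esophageal squamous carcinoma cell lines, and the series holds 7 libraries from these lines. The 3 TE5 knockdown libraries are named here shCCAT1 (hairpin shCCAT1-2), shTP63 (hairpin shp63-ma) and shSOX2 (hairpin shsox2-1). Each came from cells carrying a short hairpin RNA (shRNA) delivered by a lentiviral vector, grown in medium with fetal bovine serum. By the sequencing names in the labels, all 3 were run on the same flow cell and lane, whereas the TE5 library with a non-targeting scramble hairpin was run on another flow cell. The scramble library was therefore left out of the choice of genes. A gene was chosen when its normalized count in shCCAT1 was at least 2-fold lower, or at least 2-fold higher, than in shTP63 and also than in shSOX2. This was a difference past 1 on the scale of log2(normalized counts + 1), in genes with at least 10 estimated counts in at least 1 of the 3 libraries. Of 25946 genes measured, 1887 (7.27%) were lower in shCCAT1 than in both others and 1336 (5.15%) were higher than in both. With 1 library a condition no test between conditions could be made, and both differences of a gene share the shCCAT1 library. Bracketed intervals below are 95% exact binomial intervals of the log2 ratio, computed on the rounded counts without the added 1, and they cover counting error only.

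TP63 and SOX2 are transcription factors of the basal layer of stratified squamous epithelium, where they sit together at many enhancers and keep cells in a squamous, proliferative state. CCAT1 is a long non-coding RNA transcribed at 8q24, upstream of MYC, and is abundant in several carcinomas. Epidermal growth factor receptor signalling through RAS and ERK induces a known set of output genes, among them the dual-specificity phosphatases that dephosphorylate ERK and the PEA3 transcription factors ETV1, ETV4 and ETV5. A knockdown that acts on these regulators can be read against another knockdown of the same line. Infection and expression of a hairpin are then common to both sides, as they are against a scramble hairpin. The hairpins themselves still differ between the sides.

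CCAT1 itself was not among the chosen genes. Its normalized counts were 197 in shCCAT1, 245 in shTP63, 327 in shSOX2 and 654 in scramble. The library with the CCAT1 hairpin was the lowest of the 4, but it lay 0.31 (0.05 to 0.58) lower than shTP63 and 0.73 (0.47 to 1.00) lower than shSOX2 on the log2 scale. CCAT1 was read from 1 transcript of the deposited tables that covers its locus on chromosome 8. TP63 had 26563 normalized counts in shCCAT1, 8042 in shTP63 and 36080 in shSOX2. SOX2 had 12291 in shCCAT1, 9343 in shTP63 and 5502 in shSOX2. Each silenced gene was thus lowest in its own library. EGFR, the receptor that starts the ERK pathway, was at 37649 normalized counts in shCCAT1, 43561 in shTP63 and 59311 in shSOX2, with neither difference past 1. ETV4 was 1.72 (1.64 to 1.81) lower than in shSOX2 but only 0.45 (0.35 to 0.54) lower than in shTP63. TXNRD1, a selenoprotein reductase, was 1.12 higher than in shTP63 and 0.04 lower than in shSOX2. CDK4, YES1, PAK4 and HMGA1 also stayed within 1 of both libraries. MYC was 1.39 higher than in shTP63, while its 10293 counts in shCCAT1 lay below the 17250 in shSOX2.

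All 3 libraries carried the squamous epithelial markers that the cell line label implies. KRT5, TP63, DSG3, TRIM29, EPCAM, CDH1, SFN, KRT17 and KRT6A each had 5983 normalized counts or more in every one of them, and KRT14 alone was near absent, at 8.43 to 28.1. Fibroblast markers summed to 175 normalized counts in shCCAT1, 818 in shTP63 and 647 in shSOX2 over the 7 measured of 9, with LUM and THY1 under the count minimum. The 5 measured leukocyte markers summed to 4570.3, 9418 and 6743, nearly all of it CD68, and the pan-leukocyte marker PTPRC stayed between 13.7 and 23.1. The 4 measured endothelial markers summed to 686, 2099 and 1138, mostly CDH5 and VWF, and KDR stayed at or below 9.95. The 3 libraries held 80528680 to 98036494 estimated counts, retained-intron transcripts took 3.71% to 3.88% of them, and mitochondrial transcripts 5.32% to 5.48%. In bulk RNA, fewer cells of a type and less RNA per cell cannot be told apart, which holds for every difference below.

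Most of the chosen genes were rare transcripts. The median of the highest normalized count was 23.5 for the lower genes and 20.2 for the higher genes, against 335 for all genes measured. Only 837 of the 1887 lower genes (44.4%) and 267 of the 1336 higher genes (19.99%) were protein-coding, against 63.4% of all genes. Long non-coding RNAs made up 43.0% of the higher genes and 25.4% of all genes, and pseudogenes 23.1% and 7.74%. For 878 genes (498 lower and 380 higher) the choice was uncertain, since at least 50% of their words of 31 bases recur in other genes or since the choice changed with how transcripts were placed in genes. The results below therefore lean on the 12112 genes with at least 500 normalized counts in 1 of the 3 libraries. Of these, 97 (0.801%) were lower in shCCAT1 than in both others and 34 (0.281%) were higher. Gene lists below are set against all genes measured, though many of their genes reach 500 counts, where these smaller shares apply.

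The same rule was then applied to each of the other libraries in turn. At the 500-count minimum, 204 genes (1.68%) were lower and 220 (1.82%) were higher in shTP63 than in both others. In shSOX2, 96 (0.793%) were lower and 75 (0.619%) were higher. At the minimum of 10 estimated counts, shTP63 had 883 lower (3.4%) and 1888 higher (7.28%), and shSOX2 had 1457 lower (5.62%) and 534 higher (2.06%). At 100 normalized counts, 310 (1.94%) were lower and 125 (0.781%) higher in shCCAT1, 298 (1.86%) and 519 (3.24%) in shTP63, and 246 (1.54%) and 159 (0.993%) in shSOX2. At the 500-count minimum shCCAT1 thus had about as many genes standing lower as shSOX2, and fewer than shTP63. At 100 normalized counts it had the most standing lower of the 3 libraries. At both of these minimums it had the fewest standing higher.

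**Figure D1:**
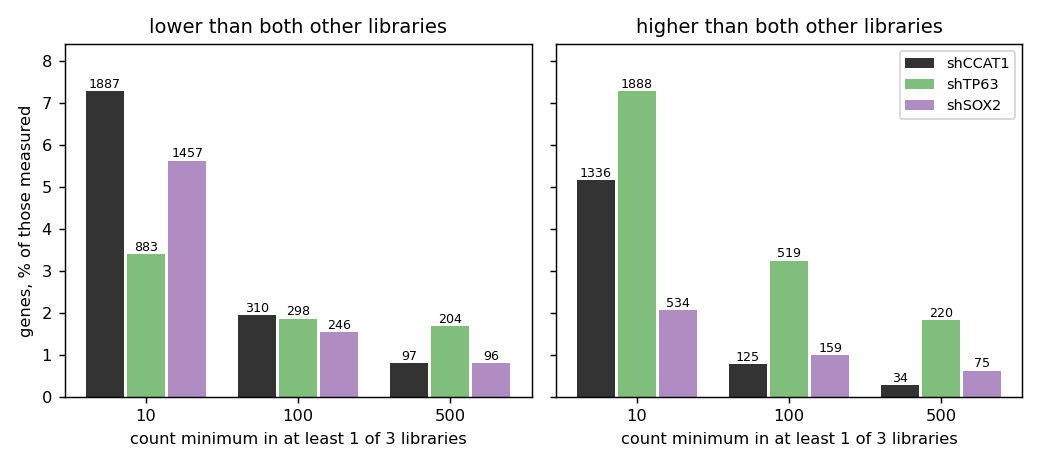
Share of measured genes (vertical axis, %) that were lower (left) or higher (right) in 1 TE5 knockdown library than in both others, by the count minimum on the horizontal axis (10 estimated counts, or 100 or 500 normalized counts), with the number of genes over each bar. The shCCAT1 bars shrink from 7.27% to 0.801% and from 5.15% to 0.281% as the minimum goes from 10 to 500.

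The genes nearest to the threshold show how fine the boundary is. Just inside lay MYRF, with 258 normalized counts in shCCAT1 against 518 and 549 (differences of -1.001 and -1.08), and on the higher side GON7, with 1377 against 586 and 679 (1.23 and 1.02). Just outside lay ADGRF4, with 318 against 917 and 637 (-1.52 and -0.999), and PAICS, a purine synthesis enzyme, with 22203 against 5737 and 11167 (1.95 and 0.99).

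**Figure D2:**
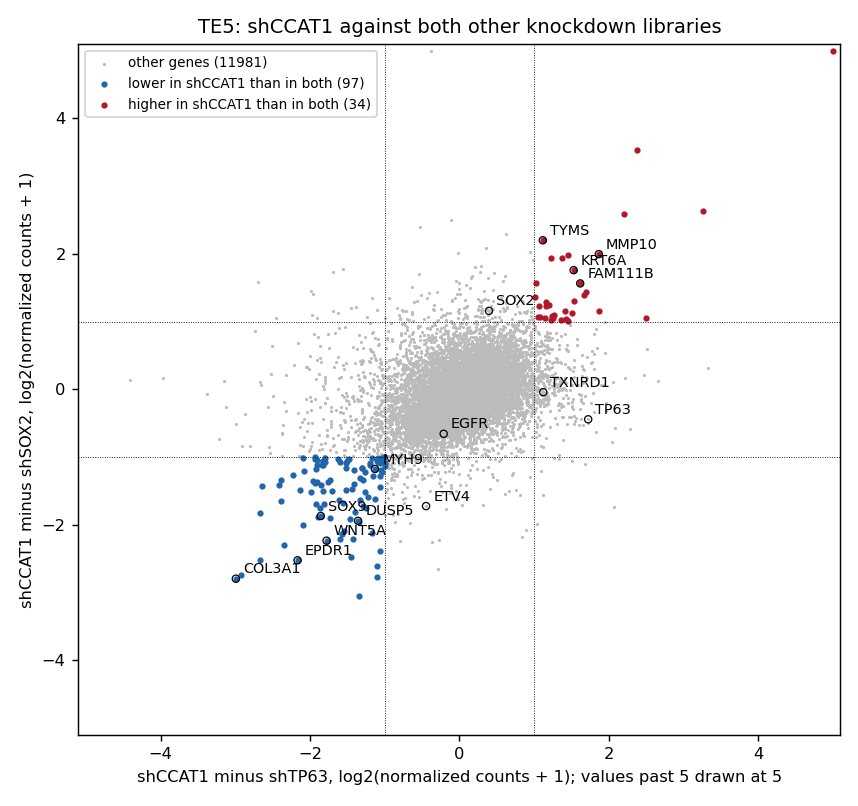
Each point is 1 of the 12112 genes with at least 500 normalized counts, by its difference to shTP63 (horizontal) and to shSOX2 (vertical), both on the log2(normalized counts + 1) scale, with dotted lines at 1 and -1. The 97 blue and 34 red genes lie past the lines on both axes, while TP63, SOX2, ETV4 and TXNRD1 are past a line on only 1 axis and EGFR on neither.

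The lower genes included several that ERK signalling induces. The gene lists used here and below were drawn up with earlier results of these data known. Their shares are therefore a description and support nothing further. Of 18 measured output and feedback genes, 4 were chosen as lower (DUSP4, DUSP5, ETV1 and ETV5), against 7.27% of all genes measured, none as higher, and 14 lay below both libraries by any amount, against 33.4% of all genes. The list's median difference was -0.47 to shTP63 and -0.85 to shSOX2, against -0.01 and 0.01 over all genes. DUSP4, a nuclear phosphatase of ERK, had 531 normalized counts in shCCAT1, 2108 in shTP63, 1524 in shSOX2 and 1029 in scramble. DUSP5, a second nuclear ERK phosphatase, had 1504, 3854, 5779 and 1380 in the same order. For DUSP5 the shCCAT1 and scramble libraries were close and the other 2 were high, whereas for DUSP4 shCCAT1 was the lowest of the 4. ETV1 had 270.3 normalized counts in shCCAT1, 831 in shTP63, 838 in shSOX2 and 351 in scramble. ETV5 had 2319, 5392, 6987 and 4140.5. These PEA3 factors were lower by 1.62 (1.43 to 1.81) and 1.22 (1.15 to 1.29) against shTP63. CCND1, the cyclin D1 gene, was at 14478, 25448 and 33319 in the 3 knockdown libraries, lower by 0.81 than shTP63 and so not chosen. EPHA2, an ephrin receptor, was at 12640, 29997 and 21300. FOSL1 and IER3 went against the rest of the list, 0.60 and 0.25 above shTP63 while below shSOX2, and EPHA4 and SPRED3 lay above both. In KYSE140, whose libraries took no part in the choice, 2 of these 18 genes were above scramble in both silencings, against 30.3% of all genes, and 8 were below it in both, against 28.7%. The medians there were -0.24 for shTP63 and -0.15 for shSOX2.

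Of 37 measured matrix and mesenchymal genes, 8 were chosen as lower, against 7.27% of all genes, and 1 as higher, against 5.15%, while 25 lay below both libraries, against 33.4%. The list's medians were -0.66 and -0.85, and the 8 became 4 without scaling and 5 on TPM. CCN1, a matricellular protein and YAP target, had 8645 normalized counts in shCCAT1, 26762 in shTP63, 17580 in shSOX2 and 13343 in scramble. CCN2, its relative, had 205, 801, 526 and 468. LOXL2, which cross-links collagen, had 5180, 12671, 17153 and 10792. The type IV collagen chains COL4A1 and COL4A2, which share a promoter region, were both lower, COL4A1 by 1.16 (1.10 to 1.21) and COL4A2 by 1.09 (1.05 to 1.13) against shTP63. In all 5 of these genes shCCAT1 was the lowest of the 4 TE5 libraries. Against shSOX2, COL4A2 was lower by 1.01 (0.97 to 1.05) and CCN1 by 1.02 (0.99 to 1.06), intervals that include the threshold. With scaling to total counts alone, COL4A2 was lower by 0.84 and CCN1 by 0.86, inside the threshold. LOX had 92.9 normalized counts in shCCAT1 and 200 and 572 in the others, and ZEB2 was at 0 in shCCAT1 and 9.95 at most. MMP10, the stromelysin-2 protease, was the 1 member of the list that was higher. It had 1164 normalized counts in shCCAT1, 319 in shTP63, 291 in shSOX2 and 778 in scramble. Several classical mesenchymal genes did not follow. VIM was 0.28 above shTP63 and 0.37 below shSOX2. TWIST2 was 1.02 and 0.13 above them, and MMP1 3.33 and 0.32 above them.

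Of the 7 fibroblast markers measured, 3 (COL3A1, DCN and COL6A3) were chosen as lower, against 7.27% of all genes, and 4 lay below both libraries, against 33.4%. COL3A1, a fibrillar collagen, had 68.0 normalized counts in shCCAT1, 548 in shTP63, 478 in shSOX2 and 88.5 in scramble. DCN and COL6A3 had at most 22.6 counts in any of the 3 libraries. PDGFRA lay 0.31 above shTP63, and COL1A2 and PDGFRB lay 0.38 and 1.09 above shSOX2. CDH5, an endothelial cadherin, was the 1 chosen of 4 endothelial markers, whose medians were -1.21 to shTP63 and 0.24 to shSOX2. It had 421, 1609 and 844 counts and is uncertain, as its choice changed with the placing of transcripts. The part of other cell types in these differences was not tested.

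The following genes were among the leading lower genes when ranked by the smaller of the 2 differences. SOX9, a transcription factor of progenitor and cartilage cells, had 1070 normalized counts in shCCAT1, 3875 in shTP63, 3913 in shSOX2 and 1580.5 in scramble. It was lower by 1.86 (1.76 to 1.95) and 1.87 (1.77 to 1.97). WNT5A, a ligand of non-canonical Wnt signalling, had 557, 1913, 2625 and 1448. SOSTDC1, a secreted antagonist of BMP and Wnt signalling, had 127, 814, 454 and 327. SOX9 in scramble lay nearer to shCCAT1, WNT5A in scramble nearer to the other 2 libraries. RAP1GAP, which inactivates the small GTPase RAP1, had 626, 2292, 2104 and 1730. EPDR1, ependymin-related protein 1, had 475, 2137, 2738 and 1946, lower by 2.17 (2.03 to 2.31) than in shTP63. SLC16A9, of the monocarboxylate transporter family, had 359.5, 1359 and 1167, and SSC4D, a scavenger receptor protein, had 272, 1016 and 1003. TENM3, a teneurin adhesion molecule, had 105, 552 and 329. EPDR1, RAP1GAP, WNT5A, SSC4D and TENM3 thus had shCCAT1 alone low, with scramble nearer to the other libraries. TIMM23B had 83.7, 640.5 and 564 counts, and its paralog TIMM23 was not among the genes measured, so that a sharing of reads between them was not assessed. SPIN4, FAM47E-STBD1 and EIF3CL are uncertain, as they share sequence or changed with the placing of transcripts.

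**Figure D3:**
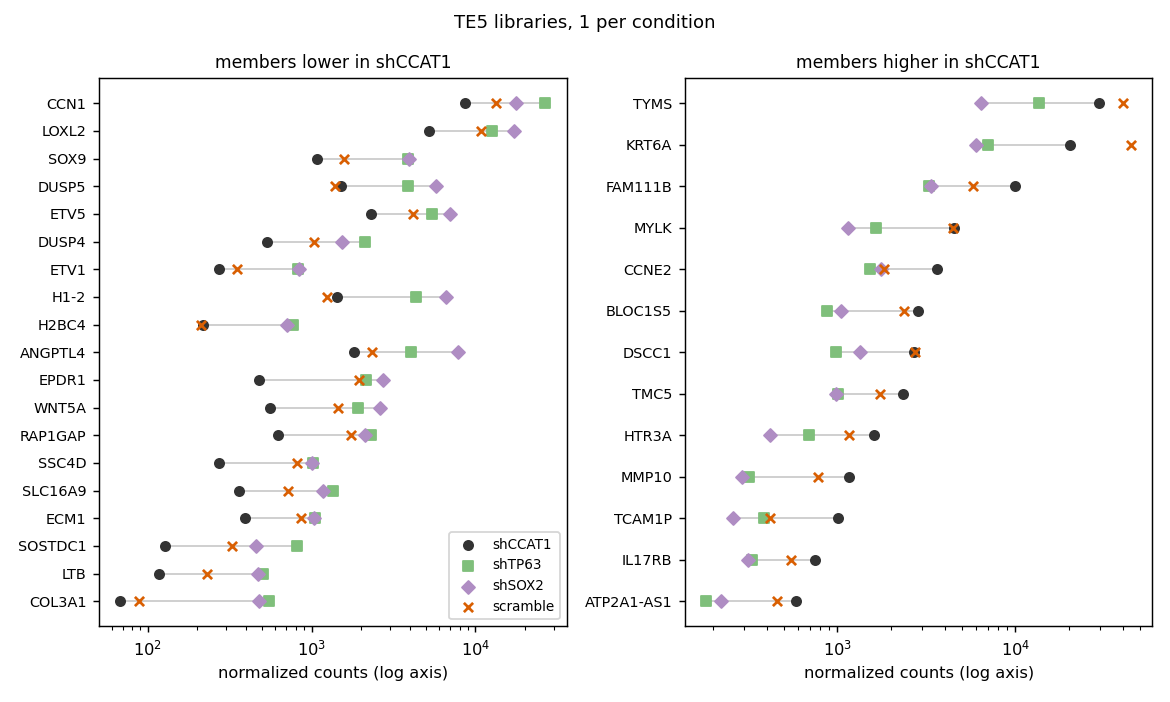
Normalized counts (log axis) of well-counted members in the 3 TE5 knockdown libraries and scramble, 1 library each, lower genes on the left and higher genes on the right. The scramble cross lies near shCCAT1 for DUSP5, H1-2, H2BC4, MYLK and DSCC1, near the other libraries for EPDR1 and TCAM1P, and beyond shCCAT1 for KRT6A.

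Of 25 cytokines and NF-kB targets, 2 (CSF2 and CCL2) were chosen as lower, a share close to the 7.27% of all genes. LTB, lymphotoxin beta, which is not in that list, had 118 normalized counts in shCCAT1, 505 in shTP63, 473.5 in shSOX2 and 229 in scramble. CSF2, the granulocyte-macrophage colony stimulating factor, had 139, 382, 304 and 204. CCL2, a monocyte chemokine, had 5.52, 99.5, 133 and 29.5. In the list 20 of 25 lay below both libraries, against 33.4% of all genes, and none above, with medians of -0.90 and -0.38. IL32, BIRC3, NFKB2 and RELB belonged to these 20, with RELB at 965.5, 2521 and 1476. ANGPTL4, a lipoprotein lipase inhibitor induced by hypoxia, had 1813, 4067 and 7860, and was the 1 chosen of 33 hypoxia and glycolysis genes, 24 of which lay below both. Interferon-stimulated genes gave no chosen gene of 29. Their medians had opposite signs, -0.89 to shTP63 and 0.44 to shSOX2, so that shCCAT1 lay between the other libraries.

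Abundant lower genes crossed the threshold narrowly. MYH9, the non-muscle myosin heavy chain, had 38953 normalized counts in shCCAT1, 85292 in shTP63, 87939 in shSOX2 and 81651 in scramble. FLNA, the actin cross-linker filamin A, had 52557 against 113236 and 109170. CALR, a chaperone of the endoplasmic reticulum, was lower by 1.09 and 1.07, and LAMB3, a laminin-332 chain, by 1.06 and 1.09. In each of MYH9, FLNA, CALR and LAMB3 the 2 other knockdown libraries differed from each other by at most 0.05. Under scaling to total counts alone, which raised shCCAT1 against shSOX2 by 0.17 at the median of the 12112 genes, FLNA, CALR and LAMB3 fell inside the threshold, at -0.89, -0.90 and -0.93 against shSOX2, and MYH9 stayed past it at -1.01. CALR was the 1 chosen of 19 unfolded protein response genes and LAMB3 of 16 basal layer and adhesion genes. These shares were no more than the 7.27% of all genes measured. However, 18 of the 19 and 15 of the 16 had at least 500 normalized counts, where 0.801% of genes were chosen as lower. By any amount, 14 of the 19 and 10 of the 16 lay below both libraries, against 33.4%.

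Histone genes were collected as a group after their values had been seen. Of 37 measured histone genes, 15 were chosen as lower, against 7.27% of all genes, none as higher, and 26 lay below both libraries, against 33.4%, with medians of -0.99 and -1.07. The choice was uncertain for 6 of the 15. H1-2, a linker histone, had 1424 normalized counts in shCCAT1, 4326 in shTP63, 6579 in shSOX2 and 1243 in scramble. H2BC4 had 218, 766, 709 and 211, and H2AC6 had 3200.0, 7712, 7432 and 2237. H2BC21, whose choice changed with the placing of transcripts, had 1835, 5559, 3848 and 1629. In these 4 genes shCCAT1 was nearer to scramble than either of the other libraries. Over the 37 genes the median difference to scramble was 0.17 in shCCAT1, 1.48 in shTP63 and 0.99 in shSOX2. H3C14 and H3C15, also uncertain, had identical values, as copies that share their reads. In KYSE140, 28 of 35 histone genes were above scramble in both silencings, against 30.3% of all genes, with medians of 0.25 in shTP63 and 0.53 in shSOX2. Most histone transcripts lack a poly(A) tail, so that their level in a library also depends on how RNA was selected.

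Of 41 squamous differentiation genes, 4 were chosen as lower and 2 as higher, shares near the 7.27% and 5.15% of all genes. By any amount, 22 lay below both libraries and 8 above, against 33.4% and 33.9%. ECM1, an extracellular matrix protein of the differentiating epidermis, had 394 normalized counts in shCCAT1, 1045 in shTP63, 1033.5 in shSOX2 and 863 in scramble. DSC1, a desmosomal cadherin, and CALML5, a calcium-binding protein, had at most 38.4 counts, and KRT6B is uncertain. KRT6A, the keratin of activated keratinocytes, was higher. It had 20265 normalized counts in shCCAT1, 7020 in shTP63, 5983 in shSOX2 and 44743 in scramble, so that all 3 knockdown libraries were below scramble and shCCAT1 least so. KRT6A shares 41.4% of its sequence words with other genes. SPRR2A, a cornified envelope precursor, had 89.5, 38.7 and 28.6, and shares 46.5% of its words. The intervals of SPRR2A, 0.66 to 1.75 against shTP63 and 0.97 to 2.34 against shSOX2, include the threshold. ERBB4 and MUC16 were chosen as lower with 4.6 and 0.92 counts in shCCAT1. The intervals of ERBB4, MUC16, CALML5, KRT6B and ZEB2 against shSOX2 include 0.

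On the higher side, all 42 S-phase genes measured lay above both libraries, against 33.9% of all genes. Of them, 3 (TYMS, CCNE2 and DSCC1) were chosen as higher, against 5.15% of all genes. All 42 had at least 500 normalized counts, where 0.281% of genes were chosen as higher. The 3 became 9 without scaling, 4 with total counts alone, and 2 with DESeq2 size factors or on TPM. Against shSOX2 the intervals of CCNE2 (0.96 to 1.14) and DSCC1 (0.91 to 1.11) include the threshold. The list's medians were 0.71 to shTP63 and 0.48 to shSOX2, with ranges of 0.14 to 1.46 and 0.04 to 2.20, and all 42 stayed above both under each scaling tried. TYMS, thymidylate synthase, had 29349 normalized counts in shCCAT1, 13539 in shTP63, 6381 in shSOX2 and 40136 in scramble. DSCC1, which helps load the replication clamp, had 2693, 979, 1336 and 2726. CCNE2, cyclin E2, which drives entry into S phase, had 3615, 1519, 1747 and 1834. For TYMS and DSCC1 shCCAT1 thus lay nearest to scramble, and for CCNE2 it lay above all 3 others. PCNA, the clamp itself, had 21807 in shCCAT1, 12068 in shTP63, 11125 in shSOX2 and 20264 in scramble. Over the list the median difference to scramble was 0.02 in shCCAT1, -0.75 in shTP63 and -0.41 in shSOX2, and 41 of 42 genes were below scramble in both other libraries. In KYSE140, 21 of 42 were below scramble in both silencings, against 28.7% of all genes. Of 54 G2/M genes, none was chosen and 44 lay above both, with medians of 0.37 and 0.20. FAM111B, a protease of cycling cells, had 9987 in shCCAT1, 3256 in shTP63, 3375 in shSOX2 and 5744 in scramble, and was 1.62 (1.56 to 1.67) and 1.56 (1.51 to 1.63) higher.

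**Figure D4:**
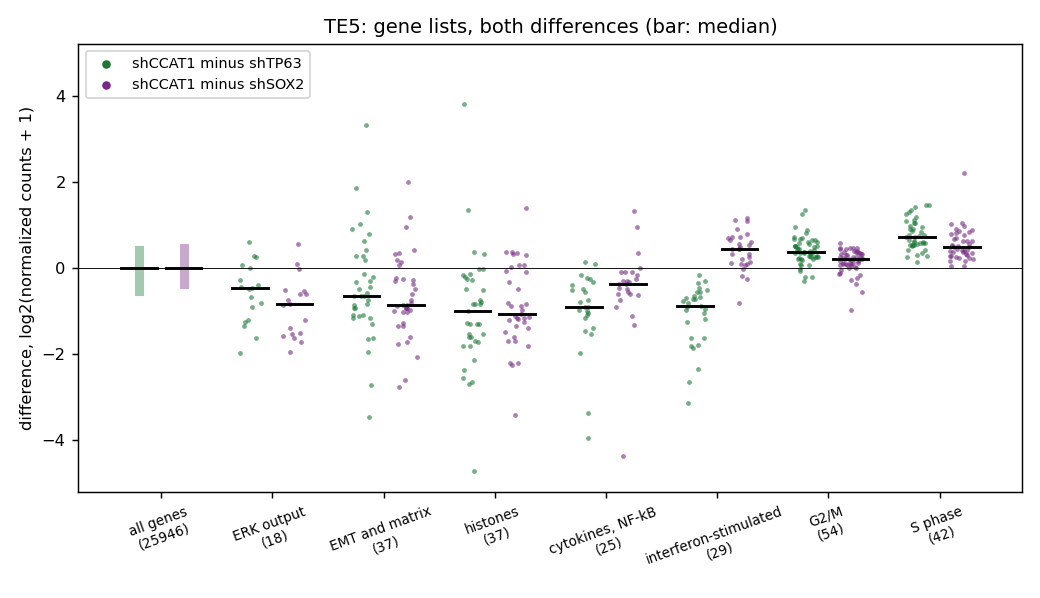
Differences of single genes (points, log2(normalized counts + 1)) to shTP63 in green and to shSOX2 in purple, by gene list, with the number of genes under each name and the median as a bar. For all genes the coloured block is the interquartile range. Every S-phase point lies above 0, most histone points lie below it, and interferon-stimulated genes are below 0 in green and mostly above it in purple.

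Other higher genes were members of none of the lists. MYLK, the myosin light chain kinase, had 4520 normalized counts in shCCAT1, 1656 in shTP63, 1145 in shSOX2 and 4440 in scramble, and was higher by 1.45 (1.37 to 1.53) and 1.98 (1.88 to 2.08). BLOC1S5, a subunit of a complex for lysosome-related organelles, had 2836, 878, 1045 and 2357. TMC5, a transmembrane channel-like protein, had 2331, 1010.1, 978 and 1743. HTR3A, a serotonin-gated channel subunit, had 1611, 691, 419 and 1161, and IL17RB, the receptor of interleukin-25, had 746, 333, 316 and 549. The pseudogene TCAM1P had 1003, 385, 260.1 and 417, and the antisense RNA ATP2A1-AS1 had 584, 183, 221 and 455. In MYLK, BLOC1S5 and ATP2A1-AS1 scramble lay with shCCAT1, while in TCAM1P it lay with the other libraries. The long non-coding RNAs ENSG00000232035 (1010.2 normalized counts in shCCAT1, 104 in shTP63, 162 in shSOX2 and 53.5 in scramble) and ENSG00000287346 (129, 45.2, 58.9 and 40.6) were high in shCCAT1 alone. NPIPP1, CNOT6LP1, ENSG00000267303, ENSG00000258377 and RNU7-111P are uncertain, as at least 50% of their words recur elsewhere or their choice changed with the placing of transcripts.

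The 3′ untranslated regions (3′ UTRs) of the chosen genes were compared by words of 7 bases, read on the transcript strand only, in the 11089 genes with at least 500 normalized counts and an annotated 3′ UTR. For each of 15606 words, genes with and without it were compared by their difference to the mean of the 2 other libraries. This followed a fit on UTR length, GC share and level. Words were ranked over all these genes by the adjusted mean difference in units of its standard error. Among the genes lower in shCCAT1 the first word was TATTTAT, with an adjusted mean difference of -0.04, present in 31 of 90 lower genes (34.4%) and in 34.1% of all. ATTTATT, ranked second, was in 34.4% of the lower genes and 35.65% of all. Of the words ranked next, CCCTCCC was in 43.3% and 25.3%, CCACCCC in 42.2% and 21.0%, and GCTCCCC in 21.1% and 11.1%. Adjusted mean differences of these words were -0.04 or -0.05. The shares among the lower genes are not adjusted for GC share. On the higher side the first words were GAACACA and AGAACAC, which overlap by 6 bases, with adjusted mean differences of 0.14 and 0.13. The same pair ranked first and second among words of genes lower in shTP63, AGAACAC with -0.26 and GAACACA with -0.25. The word GAAGGAT, at rank 7 with 0.09 in shCCAT1, ranked first among words of genes lower in shSOX2, with -0.19. On the higher side, AGAACAC also ranked first in shSOX2, with 0.13, and GAAGGAT first in shTP63, with 0.10. Since each library was set against the mean of the 2 others, the differences of a word in the 3 libraries cancel out. A word low in one library must therefore come out high in another. These rankings share their libraries and cannot show whether a word is particular to the genes higher in shCCAT1.

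Of the 20 higher genes with a 3′ UTR, 8 (40%) held GAACACA or AGAACAC against 17.1% of all genes, and 6 (30%) held GAAGGAT against 10.6%. In 5 of the 20 both kinds were present, against 378 of the 11089. Among the 90 lower genes the shares were 13.3% and 11.1%. The words were ranked on the same differences that chose the genes, so that their shares among the chosen genes restate the choice and support nothing. The sites of 4 named higher genes are shown because these genes were high in shCCAT1 against both libraries and carry the words. Capitals mark the word, and 7 bases on either side are in lower case, 5′ to 3′ on the transcript strand. Sequences are from the GRCh37 reference with GENCODE 44 transcripts, and all lie in 3′ UTR exons.
TYMS, chr18:673010-673030, plus strand: ggagctcGAAGGATattgtca
MYLK, chr3:123331199-123331219, minus strand: gtaaatgAGAACACtacaact
MYLK, chr3:123330896-123330916, minus strand: cattctaGAAGGATatcttat
BLOC1S5, chr6:8015346-8015366, minus strand: tgagagtGAACACAttgtctc
BLOC1S5, chr6:8015441-8015461, minus strand: gctgttgGAAGGATgtataaa
FAM111B, chr11:58894782-58894802, plus strand: ataatctGAACACAaaaccct
KHK, LYPD1, GON7, INSR and ZNF782 also held at least 1 of these words and were picked out for that after their values had been seen, INSR as uncertain. KYSE140 carried hairpins of the same names, and its libraries took no part in the ranking. There, genes with GAACACA or AGAACAC had a median difference to scramble of -0.14 in shTP63, against -0.01 for genes without, and of -0.01 against 0.02 in shSOX2. Genes with GAAGGAT had -0.14 in shSOX2, against 0.03 for genes without, and -0.003 against -0.03 in shTP63. TYMS, which holds GAAGGAT only, had 6369 normalized counts in KYSE140 scramble, 6085 in shTP63 and 1837 in shSOX2. BLOC1S5, which holds both kinds, had 1257, 770.4 and 423 there, and MYLK 2164, 1241 and 1233. FAM111B was nearly absent from KYSE140, at 10.9 to 39.3. Of the 41 S-phase genes with a 3′ UTR, 36 held none of the 3 words, and all 36 lay above both libraries, with medians of 0.64 and 0.41. The 5 that held at least 1 of the words also lay above both, with larger medians of 1.05 and 0.82. The part of the words in these differences was not tested. The target sequences of the hairpins were not used here.

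Transcripts of the lower genes were richer in G and C than other genes. Their median GC share was 53.8%, with an interquartile range of 47.3% to 59.3%, against 48.5% (42.0% to 56.8%) over the 12112 genes, while the higher genes had 48.3%. Median transcript length was 3540 bases for the lower genes, 2216 for the higher genes and 3054 over all. The part of base composition in the differences was not tested.

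The scramble library was used last, to place the 97 lower and 34 higher genes. Among the lower genes, scramble lay nearer to shCCAT1 in 41 (42.3%), against 51.5% of the 12112 genes. Both other knockdown libraries were above scramble in 77 of the 97, against 2623 of the 12112, and in 67 scramble fell between shCCAT1 and both others, against 1232. The median difference to scramble was -0.885 in shCCAT1, 0.68 in shTP63 and 0.62 in shSOX2. Among the higher genes, scramble lay nearer to shCCAT1 in 20 (58.8%), both others were below scramble in 29, against 4925 of the 12112, and scramble fell between in 25, against 1167. The medians there were 0.52, -0.80 and -0.89. The rule itself puts shCCAT1 on one side of both other libraries, so that these positions are a description of the chosen genes. Scramble came from another flow cell, and the part of that in its place was not tested.

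KYSE140, in which TP63 and SOX2 but not CCAT1 were silenced in this series, gave values that the choice had not used. Of the 90 lower genes measured there, 43 (47.8%) were above scramble in both silencings, against 27.96% of the well-counted genes, with medians of 0.16 and 0.17. Of 32 higher genes, 15 (46.9%) were below scramble in both, against 28.7%, with medians of -0.27 and -0.36. The 2 KYSE140 silencings share their scramble library, which was on another lane than they were.

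**Figure D5:**
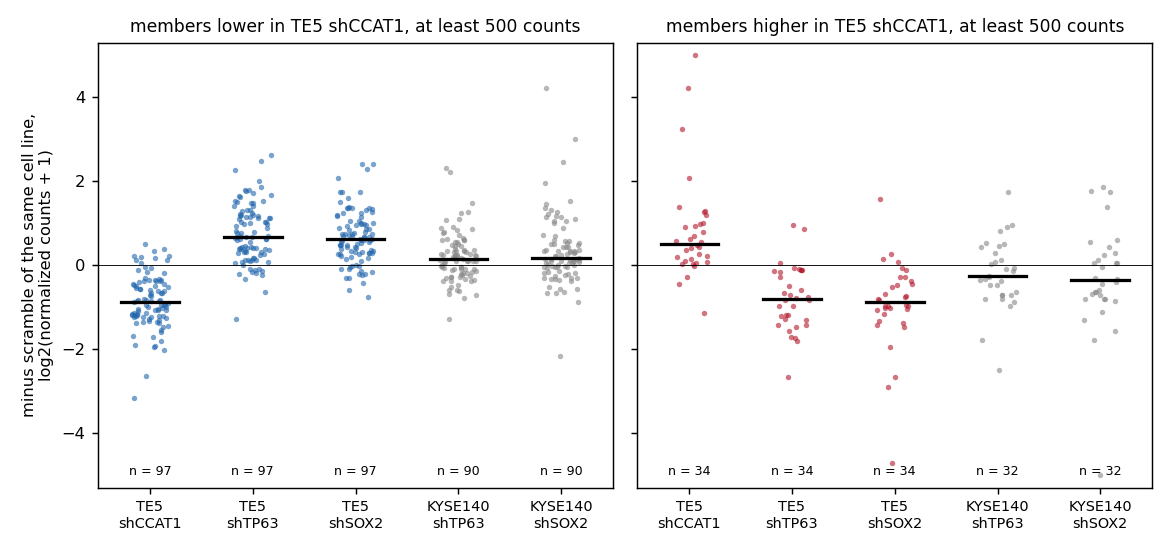
Difference to the scramble library of the same cell line (log2(normalized counts + 1), values past 5 drawn at 5) for the 97 lower genes (left) and 34 higher genes (right), with TE5 in colour, KYSE140 in grey, each point a gene and the bar the median. TE5 shCCAT1 sits at -0.885 for lower genes and the other 2 libraries at 0.68 and 0.62, and the KYSE140 medians have the signs of TE5 shTP63 and shSOX2 at smaller size.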

How the data were processed

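Each file held, for 1 library, the estimated counts and TPM of 196354 transcripts. Per the study's methods and the submitters' processing notes, the authors ran kallisto on 100 bp paired reads against the hg19 transcriptome (kallisto's version is not given in the sources used here) and deposited estimated counts and TPM, the latter scaled for transcript length and library size. Here, estimated counts were summed to genes with GENCODE 44 on GRCh37. Of 13491 transcripts not in that annotation, 7011 lying between transcripts of 1 gene in file order were given to it (99.68% correct on held-out transcripts), and the rest, with about 2.7% of counts, were left out. Counts were scaled by TMM (edgeR 4.0.16) over the 3 libraries. TMM over the 4 TE5 libraries and over the 3 KYSE140 libraries served for the scramble comparisons. Intervals cover counting error only, as each condition had 1 library. Reads lack molecular identifiers, so PCR copies could not be told apart and the intervals do not allow for them. The deposited counts were 68532611 to 98036494 per library. Members and lists were chosen with earlier results of these data known. Genes were named when among the 15 with the largest smaller difference in each direction at 500 counts, among the 5 most abundant, silenced or named by the study, or members of a list. The rule was tested on simulated data. Other scalings, count minimums, pseudocounts, units, thresholds and placings of transcripts were tried as alternatives. Python 3.11.15 and R 4.3.3 were used. Some members named by these rules are not reported here.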

Additional observations from a re-analysis of the deposited data

How the results depend on the processing

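No paired analysis was possible because each condition had 1 library. The counts of chosen genes turned on the count minimum and the added constant. With a minimum of 1 estimated count they were 3682 lower and 2237 higher, with 100 estimated counts 318 and 134, with a pseudocount of 10 they were 705 and 576, and at a threshold of 0.58 they were 3100 and 2601. TPM plus 0.1 gave 1095 lower and 1183 higher, and no scaling 1468 and 1635, which turned the balance of the main 1887 and 1336. Scaling to total counts alone gave 1695 and 1530, kept 65 of the 97 well-counted lower genes and all 34 higher genes, and no scaling kept 48 of the 97 and 33 of the 34. DESeq2 size factors kept 94 and 33. CCAT1 against shSOX2 was -0.35 without scaling. The smaller difference of TXNRD1 changed sign to 0.13 with total counts alone, 0.35 without scaling, 0.0661 with TPM and 0.12 with annotation matches only. That of CDK4 became 0.089 without scaling, and that of SPIN4 0.0862 with transcripts at gene edges added. The last 2 placings of transcripts were chosen after seeing the data. The cause was not tested.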

Other observations

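The other gene lists gave few members. Over all genes, 33.4% lay below both libraries by any amount, 33.9% above both, and 7.27% were chosen as lower. Of 24 sterol synthesis genes, 20 lay below both and none was past the threshold, with medians of -0.33 and -0.32. The 30 ATF4 targets had 18 below both, the 23 p53 targets 13 and the 9 fatty acid synthesis genes 5, again with none chosen. Of 14 EGFR family receptors and ligands, 8 lay below both and none above, with medians of -0.55 and -0.09, and ERBB4 was the 1 chosen. Squamous transcription factors had 3 of 17 below both and 6 above, with none chosen, and the 8 transcripts measured at 8q24 had 4 and 1. Of 15 simple epithelium genes, 7 lay below both and MUC16 was chosen. Among 19 RNA processing and quality genes H1-2 was the 1 chosen, with 6 below both and 6 above.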
